A study of Mus musculus with 8 samples.

Results

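The genes described here are 7 calcium/calmodulin-dependent protein kinase genes (Camkk1, Camkk2, Camk1, Camk1d, Camk2d, Camk2g and Camk4) and Creb1, the gene of the transcription factor CREB, in mouse bone marrow-derived macrophages. They were taken by symbol, and all 8 were found among the 24940 genes of the deposited table. RNA sequencing covered 8 libraries in 4 groups of 2, each with a short hairpin labelled TMBIM6sh or NCsh. The groups were TMBIM6sh with RANKL (100 ng/ml for 24 h), TMBIM6sh without RANKL, NCsh with RANKL (the same dose and time) and NCsh without RANKL. All the cells were adherent primary macrophages grown from the marrow of C57BL/6 mice aged 6 to 8 weeks, and M-CSF at 30 ng/ml was shared by the groups. All samples carry 1 treatment text that names RANKL, so the groups without it rest on the sample titles and treatment labels. NCsh is not spelled out, and 1 hairpin is named on each side, so a lack of Tmbim6 cannot be told apart from what else a hairpin may do. The labels do not say whether duplicates came from separate mice or cultures, so the p-values measure only the spread between these libraries.

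RANKL is the cytokine that turns macrophage precursors into osteoclasts, and Tmbim6 encodes a membrane protein of the endoplasmic reticulum that affects calcium release. Calcium bound to calmodulin activates the CaM kinases. The kinases made by Camkk1 and Camkk2 act upstream: they phosphorylate CaM kinase I (Camk1, Camk1d) and CaM kinase IV (Camk4) and so raise their activity, whereas CaM kinase II (Camk2d, Camk2g) phosphorylates itself. CaM kinase IV is known for phosphorylating CREB in the nucleus, and in mouse osteoclast precursors the pair is known to act on Fos and Nfatc1. Transcript levels say nothing of phosphorylation, which was not measured.

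The start sites of the genes were searched for the cyclic AMP response element (CRE), the sequence that CREB binds. RefSeq windows of 300 bases in GRCm38.p6, with 250 before and 50 after a start site, were at hand for 6 of the 8 genes (7 windows, 2 of them of Camk1d). Camk2g and Camk4 were not matched. The palindromic CRE, TGACGTCA, was in 0 of the 7 windows and in 1.79% of 32851 windows of all genes. The CRE half-site, TGACG on either strand, which is also part of the full CRE, was in the windows of Camk1 and Camkk1 and in 20.8% of all windows. The AP-1 letters TGANTCA (the motif of Fos and Jun proteins) were in 0 of the 7 windows, against 7.81% of all. The sites of Camk1 and Camkk1 are shown because they are the only half-sites found. Both are written 5′ to 3′ on the strand of the gene, with the half-site in capitals. They lie 185 bases before the Camk1 start and 166 before the Camkk1 start in RefSeq. The RefSeq start of Camkk1 is at position 73018988, whereas its counted gene model begins at 73019008.
Camk1, chr6:113344075-113344135, minus strand: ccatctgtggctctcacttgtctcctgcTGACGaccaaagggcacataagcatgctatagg
Camkk1, chr11:73018794-73018854, plus strand: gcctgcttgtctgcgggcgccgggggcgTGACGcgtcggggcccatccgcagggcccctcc

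Camk1d, which had the largest hairpin difference of the 8 genes, has 2 start sites in RefSeq, both on the minus strand. The upstream site at position 5714762 lies in a CpG-rich window with 29 CpG dinucleotides. The downstream site at position 5676046, where the counted gene model begins, has 5 CpG, against a median of 7 over all windows. The upstream site lies outside the span of the counted gene model. Transcripts of the 2 starts were not told apart in the deposited values, since 1 value is given per gene. Both windows are shown to set these starts side by side, with CpG in capitals.
Camk1d upstream, chr2:5714713-5715012: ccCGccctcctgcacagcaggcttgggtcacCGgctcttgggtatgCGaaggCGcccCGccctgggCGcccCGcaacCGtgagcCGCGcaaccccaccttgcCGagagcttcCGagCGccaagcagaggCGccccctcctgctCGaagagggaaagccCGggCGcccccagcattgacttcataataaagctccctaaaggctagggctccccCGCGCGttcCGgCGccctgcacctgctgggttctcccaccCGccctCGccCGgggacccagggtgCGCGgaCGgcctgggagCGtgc
Camk1d downstream, chr2:5675997-5676296: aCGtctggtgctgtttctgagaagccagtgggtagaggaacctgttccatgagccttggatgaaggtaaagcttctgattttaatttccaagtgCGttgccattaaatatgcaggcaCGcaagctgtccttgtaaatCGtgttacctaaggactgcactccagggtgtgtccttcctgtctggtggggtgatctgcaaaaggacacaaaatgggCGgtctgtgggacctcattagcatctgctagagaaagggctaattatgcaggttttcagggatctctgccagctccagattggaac
The windows of Camk2d (31 CpG), Creb1 (31), Camkk1 (36) and Camkk2 (42) were CpG-rich like the upstream Camk1d window, and Camk1 had 15 CpG.

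The libraries held 25474500 to 28595000 tags (mapped reads as the authors' counting program counts them), of which 83.5 to 86.4% fell in exons of the table's genes, and 15103 to 15396 genes were above 0. Levels are given in RPKM, tags per kilobase of exon scaled to the tags of the library, on which genes can be compared. Tmbim6, the target of the hairpin, was at 10.0 and 10.5 RPKM in TMBIM6sh cells with RANKL and 11.1 and 11.7 without it, against 309 and 321 RPKM in NCsh cells with RANKL and 330 and 334 without it. The TMBIM6sh means were 3.25% of NCsh with RANKL and 3.44% without it. All 9 macrophage markers were present, with summed levels of 7503 to 8118 RPKM (TMBIM6sh with RANKL), 8592 to 8600 (TMBIM6sh without), 9203 to 9280 (NCsh with RANKL) and 9399 to 10799 RPKM (NCsh without). The sum was lower in TMBIM6sh than in NCsh libraries and was mostly Lyz2 (5280 to 8071 RPKM). The other 8 markers summed to 2222 to 2405 RPKM in TMBIM6sh and 2403 to 2421 RPKM in NCsh libraries with RANKL, which overlapped, and to 2428 to 2461 RPKM in TMBIM6sh and 2601 to 2727 RPKM in NCsh libraries without it. The part of this and the next marker lists in the results below was not tested. The 8 T cell markers, relevant because Camk4 is a known T cell gene, summed to 1.59 to 2.33 RPKM in TMBIM6sh and 2.65 to 3.14 RPKM in NCsh libraries, without overlap, with Cd2 at 0 in every library. Neutrophil markers summed to 11.5 to 15.5 RPKM in TMBIM6sh and 22.6 to 28.1 RPKM in NCsh libraries, nearly all of it S100a8, with Ly6g at 0. B cell markers summed to 0.435 to 1.30 RPKM in TMBIM6sh and 1.09 to 3.13 RPKM in NCsh libraries, with Blk at 0. The sum of 6 dendritic cell markers was higher with RANKL under both hairpins. In TMBIM6sh libraries the sum was 1.13 to 1.14 RPKM with and 0.614 to 0.654 RPKM without RANKL. In NCsh libraries it was 0.931 to 1.08 RPKM with and 0.513 to 0.815 RPKM without RANKL. None of these markers reached 1 RPKM in any library, and the highest, Ccr7, had at most 39 tags, so the sum rests on few tags. Stromal and endothelial markers reached at most 3.73, erythroid markers 0.127 and mast cell and basophil markers 0.014 RPKM in any library.

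Between the hairpins, Camk1d was 2.76 times as high in TMBIM6sh as in NCsh cells with RANKL and 2.75 times as high without it, Camk2d was also higher under both conditions, and Camkk1 was lower under both. Camkk2 was higher in TMBIM6sh cells with RANKL. Camk1, Camk2g and Creb1 did not pass the test between hairpins. Of the 7 genes tested, 3 were higher and 1 lower in TMBIM6sh than in NCsh cells with RANKL, where 28.6% of all 11040 genes tested were called (8.93% higher, 19.7% lower). Without RANKL 2 were higher and 1 lower, where 24.2% of all genes were called (10.4% higher, 13.8% lower). A call is a limma p under 0.05 after Benjamini-Hochberg adjustment over all genes tested, on log2(RPKM + 1), and genes were tested when at 1 RPKM or more in at least 2 libraries. Camkk1, the 1 lower gene in both comparisons, reached that level in NCsh libraries alone. Its being tested is thus not independent of its difference. The median log2 difference of the 7 genes was 0.02 with RANKL and 0.11 without it, against -0.07 and -0.02 over all genes tested. Because this is bulk RNA, a change in the share of cells that carry a transcript and a change in its amount per cell cannot be told apart.

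**Figure D1:**
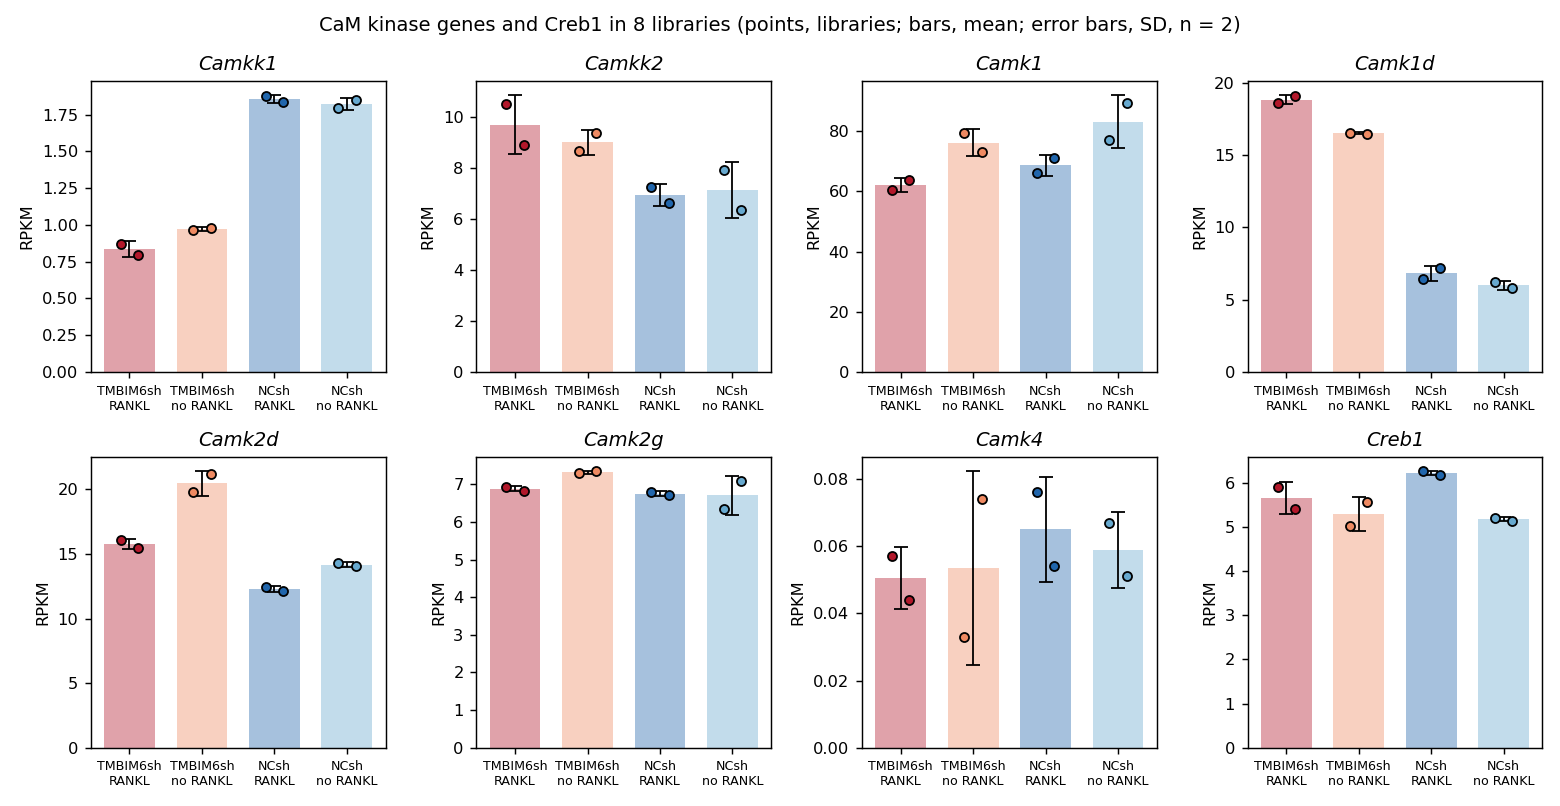
Levels in RPKM (vertical axes, each from 0) of the 8 genes in the 4 groups; points are the 2 libraries of a group, bars their mean and error bars the SD. Camk1d lies at 16.5 to 19.1 RPKM in the TMBIM6sh libraries and at 5.80 to 7.18 in the NCsh libraries, while Camkk1 lies below 1 RPKM in all TMBIM6sh libraries.

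Camkk1, the first of the 2 upstream kinases (chromosome 11, 73019008 to 73042065, plus strand of mm10), was at 0.872 and 0.798 RPKM in TMBIM6sh cells with RANKL, against 1.88 and 1.83 RPKM in NCsh cells with RANKL. In the absence of RANKL it was at 0.963 and 0.981 RPKM in TMBIM6sh cells and 1.79 and 1.85 in NCsh cells. Every TMBIM6sh library was below every NCsh library. These levels rest on 70 to 96 tags per library in TMBIM6sh and 163 to 181 in NCsh cells. The TMBIM6sh mean was lower, and the NCsh mean was 2.22 times as high with RANKL (log2 difference of TMBIM6sh minus NCsh -0.64, SE 0.117, adjusted p = 0.00339) and 1.87 times as high without it (-0.52, SE 0.117, adjusted p = 0.0114). The log2(RPKM + 1) scale understates a change at so low a level: limma's voom method on tags gave -1.15 and -0.90. Camkk1 passed the filter through the 4 NCsh libraries alone, so its being tested is not independent of its difference, but it was also called with no filter. The call without RANKL was lost when NCsh no RANKL replicate 2 (adjusted p = 0.0534) or TMBIM6sh no RANKL replicate 1 (0.0639) or 2 (0.0582) was left out.

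Camkk2, the upstream kinase that can also activate AMP-activated kinase (chromosome 5, 122731170 to 122779410, minus strand), went the other way. It was at 10.5 and 8.90 RPKM in TMBIM6sh cells with RANKL, against 7.25 and 6.66 RPKM in NCsh cells with RANKL. Cells without RANKL had 8.67 and 9.37 RPKM in TMBIM6sh and 7.93 and 6.38 in NCsh cells. The groups did not overlap in either comparison, but the duplicates were spread, with an SD of 1.16 RPKM in TMBIM6sh cells with RANKL and 1.10 RPKM in NCsh cells without it. Camkk2 was 1.40 times as high in TMBIM6sh as in NCsh cells with RANKL (log2 difference 0.43, SE 0.111, adjusted p = 0.0179). That call was lost without the filter (adjusted p = 0.0724), without NCsh RANKL replicate 2 (0.0995) and without TMBIM6sh RANKL replicate 1 (0.130). Without RANKL the difference of 0.30 (SE 0.111, adjusted p = 0.0774) did not pass, though it was called by voom (0.00817) and when NCsh no RANKL replicate 1 was left out (0.44, adjusted p = 0.0256). Without NCsh no RANKL replicate 2 it was 0.17 (adjusted p = 0.354).

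Camk1d encodes the delta form of CaM kinase I (chromosome 2, 5293457 to 5676046, minus strand). Its level was 18.6 and 19.1 RPKM in TMBIM6sh cells with RANKL, against 6.46 and 7.18 RPKM in NCsh cells with RANKL. In cells without RANKL it was 16.6 and 16.5 RPKM in TMBIM6sh and 6.23 and 5.80 RPKM in NCsh cells. The lowest TMBIM6sh library was thus more than 2 times as high as the highest NCsh library. With RANKL the log2 difference was 1.35 (SE 0.0741, adjusted p = 7.46e-06), which ranked 9 of 11040 from the highest. Without RANKL it was 1.32 (SE 0.0741, adjusted p = 9.43e-06), ranked 10. All 14 alternative fits called both comparisons, with log2 differences of 1.28 to 1.47. RANKL moved Camk1d by 0.18 in TMBIM6sh cells (adjusted p = 0.141) and 0.16 in NCsh cells (adjusted p = 0.191), neither of which passed, though voom called the first (0.19, adjusted p = 0.0424). The 2 RANKL differences lay 0.02 apart (95% interval -0.21 to 0.26).

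Camk1, the alpha form of CaM kinase I (chromosome 6, 113334124 to 113343922, minus strand), was the highest of the 8 genes in every library. It was at 60.5 and 63.7 RPKM in TMBIM6sh cells with RANKL and 79.4 and 73.0 in TMBIM6sh cells without it, and at 66.2 and 71.2 RPKM in NCsh cells with RANKL and 77.0 and 89.5 in NCsh cells without it. With either hairpin both RANKL libraries were below both libraries without RANKL. In TMBIM6sh cells Camk1 with RANKL was at 81.5% of its level without RANKL and was called lower (log2 difference -0.29, SE 0.0820, adjusted p = 0.0413), but with no filter (0.118) and in 6 of the 8 fits that leave out 1 library (0.0612 to 0.260) the call was lost. In NCsh cells the difference was -0.27 (adjusted p = 0.0549). It was called with median-ratio scaling (0.0137), by voom (0.00699) and without NCsh no RANKL replicate 1 (0.0142), whereas without NCsh no RANKL replicate 2 it was -0.16 (adjusted p = 0.205). Between hairpins the differences were -0.14 with RANKL (95% interval -0.33 to 0.04) and -0.12 without it (-0.31 to 0.06). Counting ignored strand, and the counted models of Camk1 and of Ogg1, a DNA repair gene on the other strand, share 63 bases at their ends. Ogg1 was at 3.62 to 4.76 RPKM in group means, and its part in the Camk1 values was not tested.

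Camk2d, the delta form of CaM kinase II (chromosome 3, 126596951 to 126846326, plus strand), was at 16.0 and 15.5 RPKM in TMBIM6sh cells with RANKL, against 12.4 and 12.1 RPKM in NCsh cells with RANKL. Without RANKL it was at 19.8 and 21.2 RPKM in TMBIM6sh and 14.3 and 14.0 RPKM in NCsh cells. No 2 of the 4 groups overlapped. It was 1.28 times as high in TMBIM6sh as in NCsh cells with RANKL (log2 difference 0.33, SE 0.0650, adjusted p = 0.00448) and 1.45 times as high without it (0.50, SE 0.0650, adjusted p = 5.75e-04). RANKL lowered it in TMBIM6sh cells to 76.9% of the level without RANKL (-0.36, adjusted p = 0.00505), a call lost when TMBIM6sh no RANKL replicate 2 was left out (0.0643). In NCsh cells the difference of -0.19 did not pass (adjusted p = 0.0799), though it did with median-ratio scaling (0.0268) and by voom (0.0398). The 2 RANKL differences were not shown to differ: they lay -0.17 apart (95% interval -0.37 to 0.04, adjusted p = 0.677).

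Camk2g, the gamma form of CaM kinase II (chromosome 14, 20734873 to 20794088, minus strand), was at 6.94 and 6.83 RPKM in TMBIM6sh cells with RANKL and 7.29 and 7.35 without it, and at 6.79 and 6.71 RPKM in NCsh cells with RANKL and 6.35 and 7.08 without it. All 8 libraries lay within 6.35 to 7.35 RPKM. None of the 5 comparisons was called. The hairpin difference was 0.02 with RANKL (95% interval -0.15 to 0.20) and 0.11 without it (-0.06 to 0.29).

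Camk4, the nuclear kinase of CREB (chromosome 18, 32939041 to 33195767, plus strand), was close to absent. It was at 0.057 and 0.044 RPKM in TMBIM6sh cells with RANKL and 0.033 and 0.074 without it, against 0.076 and 0.054 RPKM in NCsh cells with RANKL and 0.067 and 0.051 without it. The groups overlapped, and the values rest on 11 to 26 tags per library over 12318 bases of exon. Exons of Camk4 share 72 bases with 2310026I22Rik, a gene on the other strand, and counting ignored strand. The part of that gene in these few tags was not tested. Camk4 did not reach the filter and was not tested. A limma fit with no filter gave adjusted p of 0.709 or more in the 5 comparisons, which does not show that the groups are alike. Of the T cell receptor complex genes, Cd3e and Cd3g had at most 1 tag in any library and Cd3d at most 4, while Cd247 had 98 to 168 tags. Cd28, a T cell costimulatory receptor gene, had 8 to 166 tags.

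Creb1 (chromosome 1, 64532804 to 64604548, plus strand) was at 5.91 and 5.40 RPKM in TMBIM6sh cells with RANKL and 5.01 and 5.56 without it, and at 6.26 and 6.18 RPKM in NCsh cells with RANKL and 5.20 and 5.14 without it. The NCsh libraries with RANKL were the highest, and both lay above those without RANKL, whereas the TMBIM6sh libraries overlapped. The RANKL difference was 0.08 in TMBIM6sh cells (adjusted p = 0.591) and 0.23 in NCsh cells (adjusted p = 0.103), the second of which was called by voom (0.0200). Between hairpins the differences were -0.12 with RANKL (95% interval -0.31 to 0.07) and 0.03 without it (-0.16 to 0.22).

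Over the 7 tested genes, RANKL in TMBIM6sh cells left 2 lower (Camk1 and Camk2d) and 0 higher, where 15.4% of all genes were called (8.53% higher, 6.89% lower). Voom called 3, with Camk1d higher. In NCsh cells 0 of 7 were called by limma, where 15.0% of all genes were (11.0% higher, 3.98% lower). Of these 7, 3 had an unadjusted p under 0.05, and voom called the same number. No RANKL difference was shown to depend on the hairpin: the interaction was called for 0 of 7 genes by limma and by voom, with 0 at an unadjusted p under 0.05, and for 0.00906% of all genes. The median RANKL difference of the 7 genes was -0.08 in TMBIM6sh and 0.01 in NCsh cells, against 0.02 and 0.06 over all genes.

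**Figure D2:**
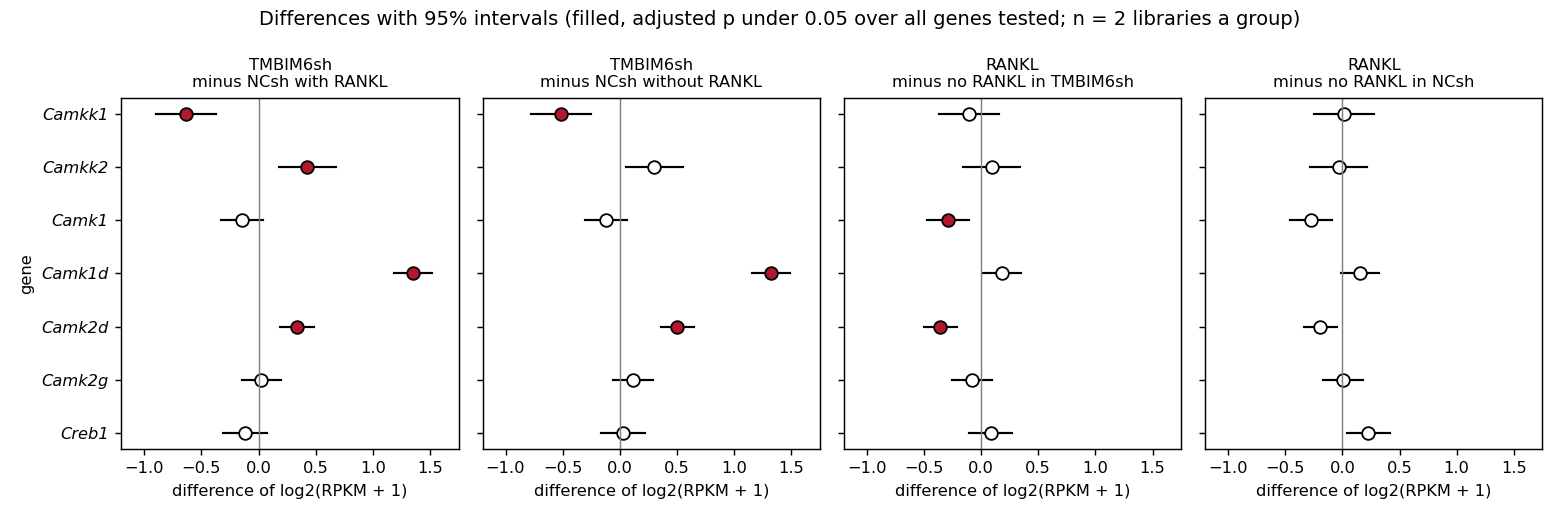
Differences of log2(RPKM + 1) (horizontal axes) for the 7 tested genes in the hairpin comparisons with and without RANKL and the RANKL comparisons in TMBIM6sh and NCsh cells, with 95% intervals from limma; filled points have an adjusted p under 0.05. Camk1d stands at 1.35 and 1.32 and Camkk1 at -0.64 and -0.52 in the hairpin comparisons, and Camk1 (-0.29) and Camk2d (-0.36) are filled for RANKL in TMBIM6sh cells.

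Within the kinase classes the make-up differed between hairpins, read from RPKM within each library. The ratio of Camkk2 to Camkk1 was 12.1 and 11.1 in TMBIM6sh cells with RANKL, against 3.87 and 3.63 in NCsh cells with RANKL. Without RANKL the ratio was 9.01 and 9.55 in TMBIM6sh and 4.42 and 3.45 in NCsh cells. Camk1d made up 23.5 and 23.1% of the summed Camk1 and Camk1d levels in TMBIM6sh cells with RANKL, against 8.88 and 9.16% in NCsh cells with RANKL. Without RANKL it made up 17.3 and 18.4% in TMBIM6sh and 7.49 and 6.08% in NCsh cells. Both quantities separated the hairpins without overlap. The Camk2d share of the summed Camk2d and Camk2g levels moved less, at 69.8 and 69.4% in TMBIM6sh cells with RANKL, against 64.7 and 64.4% in NCsh cells with RANKL. Without RANKL that share was 73.1 and 74.2% in TMBIM6sh and 69.3 and 66.5% in NCsh cells. The ratio and the shares were not tested. They are made from the same levels as the differences above and add no separate evidence. The ratio divides by Camkk1, which rests on 70 to 96 tags per library in TMBIM6sh cells.

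**Figure D3:**
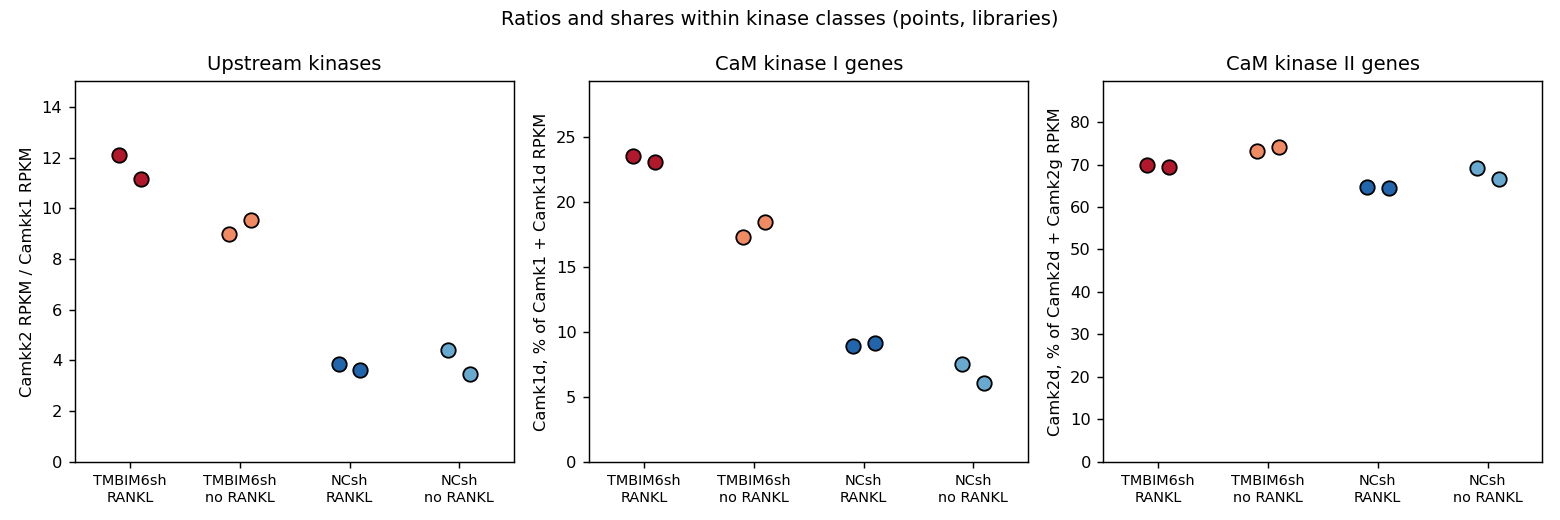
The ratio of Camkk2 to Camkk1 levels, the Camk1d share of Camk1 plus Camk1d and the Camk2d share of Camk2d plus Camk2g (vertical axes, each from 0), with 1 point per library in each of the 4 groups. The ratio lies at 9.01 to 12.1 in the TMBIM6sh and at 3.45 to 4.42 in the NCsh libraries.

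The summed level of the 7 kinases was 113.6 and 114.8 RPKM in TMBIM6sh cells with RANKL, against 101.1 and 105.8 RPKM in NCsh cells with RANKL, and without RANKL 132.7 and 128.4 RPKM in TMBIM6sh and 113.6 and 124.7 RPKM in NCsh cells. Camk1 supplied most of it in every group. The order below Camk1 differed between hairpins. In TMBIM6sh cells with RANKL, Camk1d (18.6 and 19.1 RPKM) stood above Camk2d (16.0 and 15.5 RPKM), and without RANKL Camk2d (19.8 and 21.2 RPKM) stood above Camk1d (16.6 and 16.5 RPKM). Camkk2, Camk2g and Creb1 followed, then Camkk1 and Camk4. None of these neighbours overlapped in TMBIM6sh cells. In NCsh cells Camk2d was second with and without RANKL, and 4 genes lay close below it. With RANKL Camkk2, Camk1d and Camk2g overlapped in their duplicates and Creb1 lay just below them. Without RANKL Camkk2 and Camk2g overlapped, Camk1d was below them and Creb1 below Camk1d.

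The genes whose profile was most like that of Camk1d or Camkk1 over the 8 libraries were found by the root mean square difference of centred log2(RPKM + 1) values among 7528 tested genes averaging at least 5 RPKM. For Camk1d they were Zbtb18 (difference 0.113), Cyb5r4 (0.139) and Gpr31b (0.166). Zbtb18, a transcriptional repressor gene, averaged 22.8 ± 0.260 and 21.4 ± 0.314 RPKM in TMBIM6sh cells with and without RANKL, against 10.1 ± 0.673 and 8.45 ± 0.660 RPKM in NCsh cells with and without RANKL (SD, n = 2 each). For Camkk1 they were Hyal1 (0.0319), Arhgef3 (0.0359) and 2810025M15Rik (0.0384). Hyal1, a lysosomal hyaluronidase gene, averaged 5.63 ± 0.0750 and 6.42 ± 0.328 RPKM in TMBIM6sh cells with and without RANKL, against 9.44 ± 0.235 and 9.22 ± 0.0679 RPKM in NCsh cells with and without RANKL (SD, n = 2 each). The match of Camkk1 rests on log2(RPKM + 1), which compresses the change of so low a gene: the NCsh mean with RANKL was 2.22 times the TMBIM6sh mean for Camkk1. All profiles share the same libraries, and no p is given for the likeness.

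Of 15 other CaM kinases and their regulators 6 were tested. Ppm1f, a phosphatase that acts on CaM kinases, was 1 of 6 called higher in TMBIM6sh than in NCsh cells, both with RANKL (0.34, adjusted p = 0.0185) and without it (0.40, adjusted p = 0.00967), and 0 of 6 were lower. Of all genes tested, 8.93% were called higher and 19.7% lower with RANKL, and 10.4% and 13.8% without it. Dapk1, a death-associated kinase, was the 1 gene called lower with RANKL in TMBIM6sh cells (-0.28, adjusted p = 0.0288), where 6.89% of all genes were lower. The list medians were -0.12 and 0.03 for the hairpin comparisons with and without RANKL, against -0.07 and -0.02 over all genes tested. Camk1g, Camk2a, Camk2b and Pnck, the remaining CaM kinase I and II genes listed, were below the filter.

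Among 10 CREB relatives, coactivators and kinases of those coactivators, Crem was the 1 gene called between hairpins, lower in TMBIM6sh cells with RANKL (1.68 ± 0.278 RPKM, against 2.40 ± 0.0247 in NCsh cells; log2 difference -0.34, adjusted p = 0.0464), and 12 of its 14 alternatives lost the call. Crtc2, a CREB coactivator, was the 1 gene called with RANKL, higher in NCsh cells (0.28, adjusted p = 0.0295). Between hairpins 28.6% of all genes tested were called with RANKL and 24.2% without it. For the RANKL comparisons the share of all genes called was 15.0% in NCsh and 15.4% in TMBIM6sh cells. Atf1, a relative of Creb1, was not called. It averaged 29.8 ± 1.53 and 30.6 ± 1.44 RPKM in TMBIM6sh cells with and without RANKL (SD, n = 2 each). In NCsh cells with and without RANKL it averaged 28.3 ± 1.87 and 26.7 ± 0.964 RPKM (SD, n = 2 each). Its level was thus above that of Creb1 in every group. The list medians were -0.05 and 0.04 for the hairpin comparisons with and without RANKL.

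The 11 other genes of kinases that can phosphorylate CREB, or of their regulatory subunits, were all tested. With RANKL 1 was higher and 3 lower in TMBIM6sh than in NCsh cells, and without RANKL 2 were higher and 4 lower, with list medians of -0.03 and -0.09. Over all genes 28.6% were called with RANKL (8.93% higher, 19.7% lower) and 24.2% without it (10.4% higher, 13.8% lower). Prkacb, a catalytic subunit of protein kinase A, averaged 32.5 ± 1.89 RPKM in TMBIM6sh and 57.7 ± 2.44 RPKM in NCsh cells with RANKL (SD, n = 2 each; log2 difference -0.81, adjusted p = 2.86e-05), and it differed by -0.64 without RANKL (adjusted p = 1.26e-04). Prkar2a, a regulatory subunit that restrains protein kinase A, was also lower with RANKL (-0.55, adjusted p = 4.97e-04) and without it (-0.61, adjusted p = 3.51e-04). Of 2 kinases of the MSK family that act on CREB, Rps6ka5 was lower (-0.56 with RANKL, adjusted p = 0.00553; -0.38 without it, adjusted p = 0.0393) and Rps6ka4 higher (0.26, adjusted p = 0.0231; 0.40, adjusted p = 0.00365). RANKL raised Rps6ka5 in TMBIM6sh cells (0.55, adjusted p = 0.0102) and in NCsh cells (0.74, adjusted p = 0.00262). It was the 1 of 11 genes called higher with RANKL in either, against 5 lower in TMBIM6sh cells and 1 lower in NCsh cells. Those 5 were Prkacb (-0.27, adjusted p = 0.0171), Rps6ka3 (-0.28, adjusted p = 0.0182), Prkar1a, Rps6ka1 and Rps6ka4, and Rps6ka1 was the 1 in NCsh cells. In TMBIM6sh cells 8.53% of all genes were higher and 6.89% lower, and in NCsh cells 11.0% and 3.98%.

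Of 10 other CaM kinase substrates 9 were tested, and 2 were higher and 0 lower in TMBIM6sh than in NCsh cells under both conditions. In either direction 28.6% of all genes were called with RANKL and 24.2% without it, so the count in either direction is no larger than the background. By direction, 8.93% of all genes were higher and 19.7% lower with RANKL, and 10.4% and 13.8% without it. Whether the list departs from these shares was not tested. Hdac9, a class II histone deacetylase gene, averaged 3.05 ± 0.103 RPKM in TMBIM6sh and 1.40 ± 0.138 RPKM in NCsh cells with RANKL (SD, n = 2 each; log2 difference 0.76, adjusted p = 0.00175), and its difference without RANKL was 0.45 (adjusted p = 0.0261). Mef2a, a transcription factor that class II deacetylases repress, averaged 40.4 ± 0.605 RPKM in TMBIM6sh and 28.7 ± 2.45 RPKM in NCsh cells with RANKL (SD, n = 2 each; 0.48, adjusted p = 7.71e-04), and its difference without RANKL was 0.62 (adjusted p = 2.43e-04). With RANKL Mef2a was lower in TMBIM6sh cells (-0.55, adjusted p = 5.87e-04) and in NCsh cells (-0.42, adjusted p = 0.00324). The list medians of the hairpin comparisons were 0.04 with RANKL and 0.08 without it.

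Of 21 textbook CREB target genes 15 were tested. With RANKL 4 were higher and 6 lower in TMBIM6sh than in NCsh cells, and without it 4 were higher and 4 lower, so the list moved in both directions, with medians of -0.17 and -0.09. Over all genes 8.93% were higher and 19.7% lower with RANKL, and 10.4% and 13.8% without it. This split depends on scaling: with median-ratio scaling 1580 genes were higher and 1680 lower with RANKL, against 986 and 2171. Ccna2, the cyclin A gene, averaged 12.3 ± 0.596 RPKM in TMBIM6sh and 19.8 ± 0.784 RPKM in NCsh cells with RANKL (SD, n = 2 each; log2 difference -0.65, adjusted p = 3.50e-04). Nr4a1, an orphan nuclear receptor gene, averaged 0.759 ± 0.0184 RPKM in TMBIM6sh and 1.77 ± 0.304 RPKM in NCsh cells with RANKL (SD, n = 2 each; -0.65, adjusted p = 0.00517). It rests on 49 and 47 tags in TMBIM6sh cells with RANKL. The log2(RPKM + 1) scale understates its change: the NCsh mean was 2.34 times as high, against 1.62 times for Ccna2. Dusp1 was lower in TMBIM6sh than in NCsh cells with RANKL (-0.35, adjusted p = 0.00358) and without it (-0.44, adjusted p = 0.00115). Gadd45b was lower without RANKL (-0.53, adjusted p = 0.00296). Pde4b, a cyclic AMP phosphodiesterase gene, was higher with RANKL (0.40, adjusted p = 0.00642) and without it (0.45, adjusted p = 0.00395). RANKL called 6 of the 15 higher and 1 lower in TMBIM6sh cells and 4 higher and 0 lower in NCsh cells. Over all genes 8.53% were higher and 6.89% lower in TMBIM6sh cells, and 11.0% and 3.98% in NCsh cells. Junb, Ccnd1, Fos and Ccna2 were higher with RANKL under both hairpins.

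Of 7 osteoclast genes tied to CREB in mouse, Fos, Nfatc1 and Acp5 were tested. Fos, an AP-1 gene, was higher with RANKL in TMBIM6sh cells (0.77, adjusted p = 3.96e-05) and in NCsh cells (0.72, adjusted p = 1.05e-04). It averaged 97.6 ± 0.752 RPKM in TMBIM6sh and 85.3 ± 2.13 RPKM in NCsh cells with RANKL (SD, n = 2 each; 0.19, adjusted p = 0.0299), a call that 6 of its 14 alternatives lost. Nfatc1, the main osteoclast transcription factor gene, averaged 5.81 ± 0.0544 RPKM in TMBIM6sh and 6.58 ± 0.484 RPKM in NCsh cells with RANKL, with no call in any comparison. Acp5, a phosphatase gene of osteoclasts, averaged 60.1 ± 6.07 and 60.0 ± 5.74 RPKM in these groups and was not called either. The late osteoclast genes Ctsk, Calcr, Itgb3 and Oscar did not reach the filter. The interaction was called for 0 of the tested genes of these 6 lists, by limma or by voom, and an unadjusted p was under 0.05 for 1 CREB relative or coactivator and 2 CREB targets.

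**Figure D4:**
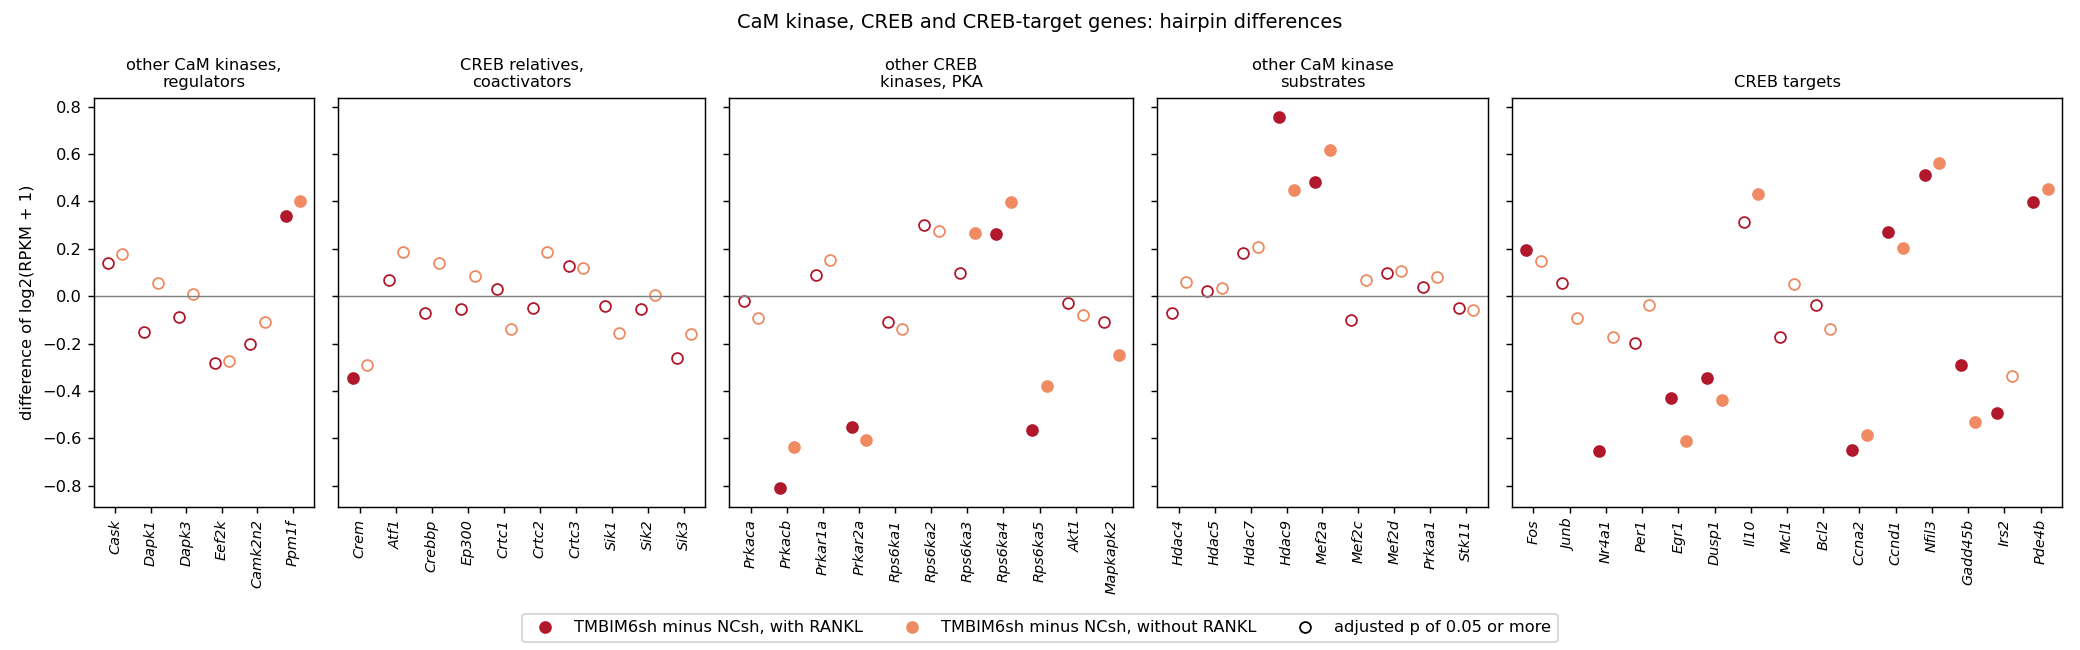
Hairpin differences of log2(RPKM + 1) (vertical axis) of the tested genes on 5 of the lists, with RANKL in red and without it in orange; filled points have an adjusted p under 0.05 by limma. Prkacb lies at -0.81 and -0.64 and Mef2a at 0.48 and 0.62, and the CREB targets lie on both sides of 0.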

How the data were processed

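The deposited values are RPKM that the authors made with HOMER in mm10, per the file headers: exon tags of either strand were summed into 1 row per gene and scaled by exon length and library size. The columns are headed FPKM, but the HOMER command in the header asks for RPKM. The submitters' processing notes also name HISAT2 and DESeq2, with no version or role. Steps of 1 tag in the low values gave tags and depth (in each library 2792 to 2971 low values were examined, and 100% lay within 0.1 of a whole tag). Tag numbers carry counting error, while the 95% intervals are limma's and rest on the spread between libraries.

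With limma 3.58.1 in R 4.3.3, log2(RPKM + 1) was fitted as 1 mean per group over all 8 libraries with an intensity trend (4 residual degrees of freedom), for 11040 genes at 1 RPKM or more in at least 2 libraries, and p-values were adjusted by Benjamini-Hochberg over them. The fit was tested on simulated data. The 5 comparisons were the hairpins with and without RANKL, RANKL with each hairpin, and the interaction. Alternatives were a pseudocount of 0.1, no filter, median-ratio scaling, only the 4 libraries compared, the replicate number as a block, voom on tags and leaving out each library. Named were all 8 genes, up to 3 genes per list and comparison with the smallest p, and 3 genes most like each of the 2 most variable members. Pde4b, the genes listed as below the filter, and a few others were named beside these. Some named genes are also given in comparisons other than those that named them. The genes, the lists and this rule were chosen with earlier results of these data known. Exon overlaps were read from GENCODE vM21 and the start-site windows from RefSeq. Some listed genes are not reported here.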

Additional observations from a re-analysis of the deposited data

How the results depend on the processing

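Of the counts of the 7 genes called, RANKL in NCsh cells changed to 2 with median-ratio scaling and 3 with voom on tags, and to between 0 and 1 when 1 library was left out, against 0 as reported. RANKL in TMBIM6sh cells changed to 1 with no filter, 3 with voom on tags and to between 0 and 2 when 1 library was left out, against 2. The hairpin count without RANKL changed to 4 with voom on tags, against 3, and that with RANKL to 3 with no filter, against 4. Both also moved in some fits that left out 1 library. Under all 14 alternatives they stayed within 1.5 times of the reported counts. So did the 3 by voom for RANKL in TMBIM6sh cells. With 1 library left out, the lone duplicate was assumed to vary like the other groups.

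Signs turned only for differences that were not called. With median-ratio scaling they were Camk1 in the interaction (0.0319), Camk2g (-0.0591) and Camkk1 (-0.0332) with RANKL in NCsh cells. When 1 library was left out, the range was -0.0422 to 0.0915 for Camk1d, -0.128 to 0.0869 for Camk1 and -0.0129 to 0.262 for Camkk2 in the interaction, -0.0592 to 0.0771 for Camk2g and -0.168 to 0.107 for Camkk2 with RANKL in NCsh cells, -0.0172 to 0.205 for Camkk2 with RANKL in TMBIM6sh cells, and -0.0369 to 0.0891 for Creb1 between hairpins without RANKL. The causes were not tested.

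The replicate numbers share no stated batch, and same-numbered libraries deviated together by correlations of only -0.065 to 0.0625, so they were taken as names. With the replicate number as a block, the members called stayed at 0, 2, 3, 4 and 0 for RANKL in NCsh, RANKL in TMBIM6sh, the hairpins without and with RANKL, and the interaction. Over all genes, median-ratio scaling moved the split of higher against lower calls to 1580 and 1680, against 986 and 2171, between hairpins with RANKL, and to 800 and 836, against 1214 and 439, for RANKL in NCsh cells. The shares of all genes higher or lower that stand beside the counts above thus depend on scaling. Depth limits Camk4 and Camkk1 most. Among listed genes named above, the calls were lost in 7 of 14 alternatives for Crtc2 with RANKL in NCsh cells and for Rps6ka5 between hairpins without RANKL, in 5 for Hdac9 between hairpins without RANKL, in 4 for Dapk1 with RANKL in TMBIM6sh cells, and in 3 for Ppm1f and Rps6ka4 between hairpins with RANKL.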

Other observations

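Camk2a, another CaM kinase II gene and known mainly from neurons, reached 1 RPKM in a single library and was therefore not tested. It was at 0.791 and 1.34 RPKM in TMBIM6sh cells with RANKL and 0.217 and 0.265 without it, and at 0.464 and 0.513 RPKM in NCsh cells with RANKL and 0.134 and 0.116 without it. The libraries with RANKL were above those without it under both hairpins, on 14 to 145 tags per library. In the limma fit with no filter on low values, the RANKL difference was 0.72 in TMBIM6sh cells (adjusted p = 0.0228) and 0.40 in NCsh cells (adjusted p = 0.123), and the interaction was 0.32 (adjusted p = 0.744). The gene was singled out after its values were seen, and none of its levels was above those of Camk2d or Camk2g.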
